A study of Caenorhabditis elegans with 2 samples.

Results

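The regions described here are divergent promoters: stretches of the Caenorhabditis elegans genome at which 2 protein-coding genes start close together and are transcribed away from each other. Their occupancy by C08G9.2, tagged at its C-terminus with GFP and FLAG, was measured by chromatin immunoprecipitation and sequencing (ChIP-seq) with an antibody against GFP. A region was a member when its summit, the position of highest signal, lay within 500 bp of the start of a minus-strand gene and of a plus-strand gene, with the minus-strand start at the lower coordinate. Of 30000 regions in the pooled ce11 list, 648 met this rule, which is 2.16%. They lay at 585 distinct gene pairs. The rule used positions and no signal. A member that overlapped a peak of the authors' thresholded list is referred to as called, and the rest as other members.

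Both samples were whole hermaphrodite late embryos of the strain OP513, collected 5 h after synchronization by egg bleaching. The strain carries the unc-119(tm4063) mutation on chromosome III and the transgene wgIs513, so every embryo had both. The samples were 2 biological replicates of 1 group, and untagged embryos were not analysed here. Each list gives regions with a signal whose scale is not stated, so signals are compared only within a list, and the depth of both replicates is unknown. Whole embryos mix many cell types, and peak lists hold no expression with which to check the stage or the cells.

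In a divergent pair the sequence between the starts lies upstream of both genes, so a protein bound there cannot be assigned to one gene by position. Compact genomes such as that of C. elegans hold many such pairs. Many worm transcripts also lose their 5′ end by trans-splicing, in which a short leader RNA replaces it, so the annotated start of a gene can lie inside the transcribed stretch.

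The bases between the 2 starts are shown for the 5 called members of highest signal on chromosomes II, III, IV, V and X, for the called member with the closest starts among the rest, and for the member of lowest signal, which was not called. They were read from the plus strand of the RefSeq WBcel235 genome, the assembly that ce11 names. Gaps over 300 bases are shown as 300 bases around the summit. Capitals mark matches to the short words listed with the base composition.
cux-7/C07H6.2: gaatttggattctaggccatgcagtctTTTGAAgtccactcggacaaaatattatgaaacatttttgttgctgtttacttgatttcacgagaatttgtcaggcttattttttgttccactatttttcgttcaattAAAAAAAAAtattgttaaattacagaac
F29B9.11/jmjd-1.2: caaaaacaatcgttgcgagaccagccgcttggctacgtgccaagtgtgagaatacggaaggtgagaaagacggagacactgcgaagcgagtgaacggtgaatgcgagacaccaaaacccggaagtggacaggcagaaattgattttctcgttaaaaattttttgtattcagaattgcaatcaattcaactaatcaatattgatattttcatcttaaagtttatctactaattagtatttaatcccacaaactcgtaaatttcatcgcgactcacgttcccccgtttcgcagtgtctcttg
Y41D4A.6/Y41D4A.4: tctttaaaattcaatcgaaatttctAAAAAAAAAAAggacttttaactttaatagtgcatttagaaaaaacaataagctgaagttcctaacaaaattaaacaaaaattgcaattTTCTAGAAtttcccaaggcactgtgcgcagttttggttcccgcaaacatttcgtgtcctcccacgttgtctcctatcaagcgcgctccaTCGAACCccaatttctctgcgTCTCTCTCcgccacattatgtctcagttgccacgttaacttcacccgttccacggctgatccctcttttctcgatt
F25H9.6/F25H9.7: tgtgcgttttctag
C56A3.6/cav-2: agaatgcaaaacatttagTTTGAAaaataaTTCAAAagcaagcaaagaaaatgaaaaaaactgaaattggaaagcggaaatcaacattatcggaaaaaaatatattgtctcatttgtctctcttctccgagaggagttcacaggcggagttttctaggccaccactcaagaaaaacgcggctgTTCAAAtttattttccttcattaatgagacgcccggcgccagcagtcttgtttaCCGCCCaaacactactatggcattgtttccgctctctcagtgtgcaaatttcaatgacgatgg
F32D8.14/F32D8.5: gtcgcggccta
hpo-9/hyls-1: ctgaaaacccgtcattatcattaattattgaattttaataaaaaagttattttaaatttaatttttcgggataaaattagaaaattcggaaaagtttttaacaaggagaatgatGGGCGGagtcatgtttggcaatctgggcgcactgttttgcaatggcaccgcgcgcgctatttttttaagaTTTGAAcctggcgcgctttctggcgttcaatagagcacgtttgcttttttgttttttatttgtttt
The shown stretches are chrIII:7520846-7521008 for cux-7/C07H6.2, chrIV:4660456-4660755 for F29B9.11/jmjd-1.2, chrIV:1745613-1745912 for Y41D4A.6/Y41D4A.4, chrV:13468362-13468375 for F25H9.6/F25H9.7, chrV:13556703-13557002 for C56A3.6/cav-2, chrV:10894789-10894799 for F32D8.14/F32D8.5 and chrV:7237131-7237380 for hpo-9/hyls-1. None of the words occurred in the shown bases of F29B9.11/jmjd-1.2, F25H9.6/F25H9.7 or F32D8.14/F32D8.5. The cux-7/C07H6.2 stretch held a TTTGAA and a tract of A, and that of Y41D4A.6/Y41D4A.4 a tract of A, a heat shock word, a tRNA promoter word and a GA repeat. The C56A3.6/cav-2 stretch held 3 matches to the word TTTGAA and 1 to the GC box GGGCGG. The uncalled hpo-9/hyls-1 stretch held 1 match to each of these words as well. That region had a signal of 25.6, and its summit lay 157 bp past the plus-strand start, outside the shown bases.

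Divergent promoters were called more often than promoters with a single start. Of the 648 divergent regions, 195 overlapped a peak of the authors' thresholded list by at least 1 bp, which is 30.1% (95% exact Clopper-Pearson interval 26.6 to 33.8%). Of the 6037 regions with exactly 1 coding start within 500 bp, 584 did, which is 9.67% (8.94 to 10.4%). Over all 30000 pooled regions the share was 5.98%, and over the 23198 regions with no coding start near the summit it was 4.32%. The difference between divergent and single-start regions was 20.4 percentage points (interval 16.8 to 24.2). These intervals cover counting error only and take regions as independent, which neighbouring regions are not.

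The thresholded list is made from the same reads as the pooled list, so each replicate's own list was read separately. In a replicate list a region counted as called when it was among the 1416 of highest signal, the number of thresholded peaks. In replicate 1 this held for 168 of 584 divergent regions (28.8%), for 457 of 5533 single-start regions (8.26%) and for 5.1% of all its regions. In replicate 2 it held for 167 of 643 divergent regions (26.0%), for 481 of 5972 single-start regions (8.05%) and for 4.82% of all its regions. The difference was thus present in both replicates, and the intervals of the 2 classes did not meet in either.

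**Figure D1:**
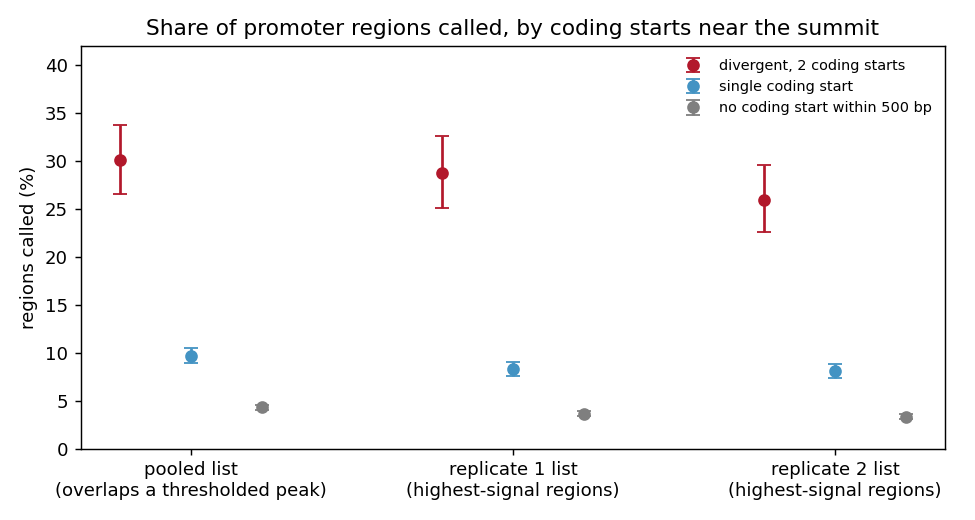
Share of regions called (%) by the coding starts within 500 bp of the summit, in the pooled list and in each replicate's list; points are shares and bars 95% exact intervals. Divergent regions lay at 30.1% in the pooled list, at 28.8% in replicate 1 and at 26.0% in replicate 2, each above single-start regions.

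The called share also varied with the position of the summit. Single-start regions with an upstream summit were called in 488 of 3159 cases (15.4%), and those with a summit downstream of the start in 96 of 2878 (3.34%). Divergent regions with the summit between the starts were called in 166 of 480 cases (34.6%, 30.3 to 39.0%), and those with the summit past a start in 29 of 168 (17.3%). Among upstream summits alone, the share was 19.1 percentage points higher in divergent than in single-start regions. In 6 bins of the distance to the nearest start, divergent regions were not split by summit position. Their called share ran between 23.6 and 34.0%, against 13.0 to 17.1% for single-start regions with an upstream summit. The intervals of these 2 classes overlapped in the bins of 51 to 100, 201 to 300 and 301 to 500 bp.

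Most of the called members were peaks in their own right. Of the 195, 173 were themselves thresholded peaks, which is 26.7% of the divergent regions, against 4.72% of all pooled regions. The other 22 had a signal between 25.9 and 75.8 and overlapped a stronger neighbour that was a thresholded peak. No gene pair held both a called and an uncalled region. Divergent regions made up 6 of the 25 pooled regions of highest signal, 24 of the 100 highest and 14 of the 55 with a signal over 500.

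No pooled region outside the thresholded list had a higher signal than a divergent peak inside it, so the signal difference between called and other members follows from the call and is given as a description. Called members had a median signal of 173 (quartiles 116 and 287), against 43.7 (32.8 and 59.8) in the other 453. The highest signal of an uncalled member was 96.1, and the lowest of a thresholded divergent peak was 97.9. Over all 648 divergent regions the median was 55.4, against 39.3 over single-start regions.

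The member of highest signal lay between vps-51, a subunit of endosomal tethering complexes, and lin-35, the worm's retinoblastoma-like protein (chromosome I, 5807227 to 5807671). Its pooled signal was 976, rank 3 of all regions, and the starts were 418 bp apart. Its signal was 481 in replicate 1, where it ranked 4, and 502 in replicate 2, where it ranked 3.

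The next member lay at cux-7 and C07H6.2, of which C07H6.2 is annotated as an E3 ubiquitin ligase (chromosome III, 7520690 to 7521002; WBGene00000854 and WBGene00015579), with a pooled signal of 893. Its signal was 455 in replicate 1 and 439 in replicate 2. The summit lay 1 bp past the cux-7 start, in the annotated 5′ UTR, and the starts were 164 bp apart. After it came F29B9.11, annotated as a cytochrome c oxidase subunit, with jmjd-1.2, a histone lysine demethylase (chromosome IV, 4660389 to 4660832; WBGene00017925 and WBGene00017920). Its pooled signal was 735, with 371 in replicate 1 and 364 in replicate 2, and its starts were 790 bp apart, the widest gap among the 20 members of highest signal.

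All of those 20 ranked 95 or higher in both replicate lists. Their gaps ran between 15 and 790 bp, and 17 of the 20 summits lay between the starts, outside any coding gene. They included chaf-2, a chromatin assembly factor subunit, paired with the phosphatase gene Y71G12B.30, with a signal of 672. F56G4.6/wbp-4 had a signal of 686, and Y41D4A.6, a mitochondrial amidotransferase subunit, shared a region of signal 627 with Y41D4A.4.

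Several members of this set paired a gene of mitochondrial protein synthesis with another. ears-2, the mitochondrial glutamyl-tRNA synthetase, shared a region of signal 524 with uncp-18, across a gap of 92 bp. let-630, a mitochondrial ribosomal subunit, shared another of signal 524 with hcp-6, a condensin subunit. mrpl-18, also of the mitochondrial ribosome, shared a region of signal 484 with C14B9.8. These 3 were noticed among the members of highest signal, so no count is drawn from them.

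Genes of the nucleus and of cell division made up others. spd-5, a scaffold protein of the centrosome, and npp-6, a nuclear pore protein, shared a region of signal 571, although its summit lay 223 bp past the spd-5 start, in an intron. fib-1, the rRNA methyltransferase fibrillarin of the nucleolus, and mut-15, a small RNA pathway gene, shared a region of signal 522. hda-11, a histone deacetylase, and C35A5.8 shared a region of signal 485, and spat-1, whose product activates a mitotic kinase, shared one of signal 435 with F57C2.5.

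The remaining members of the 20 were C56A3.6 with the caveolin gene cav-2 (signal 533), C45G9.11 with C45G9.2 (503), W02H5.16 with W02H5.19 (501), F09E5.11 with bmy-1 (467), sup-35 with Y48A6C.4 (459) and ahsa-1 with C01G10.7 (445). ahsa-1 is annotated as an activator of the Hsp90 chaperone. Y48A6C.4 carries a domain of ribosomal RNA processing proteins, and C45G9.2 is annotated as a tRNA modifying enzyme.

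The lowest signal in the thresholded list was 96.98, and no uncalled member reached it, the highest of them being at 96.1. The list also held members whose replicate ranks differed widely. How each call was decided is not given in the sources used here. The pooled signal shares its reads with both replicates. The replicate ranks of called members are thus partly fixed by the call and are given as a description. All 195 overlapped a region in both replicate lists, and 159 (81.5%) were among the 1416 highest of both. Another 15 were among the highest of replicate 1 only, 17 of replicate 2 only and 4 of neither. Their median rank was 386 in replicate 1 and 390 in replicate 2, and Spearman's rho between the 2 signals was 0.87 across these regions. Of the 453 other members, 306 overlapped a region in both lists, with median ranks of 8234 in replicate 1 and 8480 in replicate 2 and a rho of 0.30. These correlations are across regions of the same 2 libraries and describe them only. Where a member overlapped several regions of a list, the one of highest signal was taken, so a member beside a strong peak carries that peak's replicate rank.

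**Figure D2:**
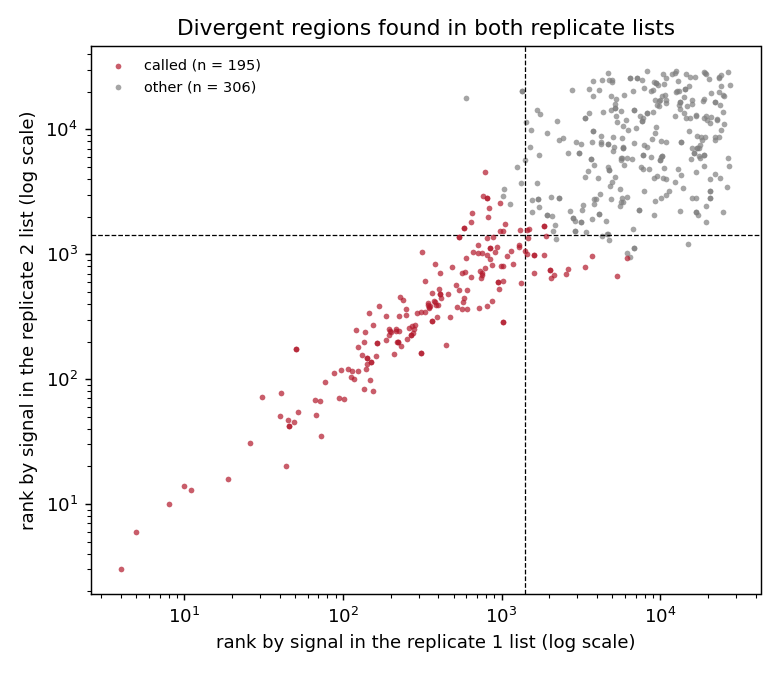
Rank by signal in the replicate 1 list (horizontal) and the replicate 2 list (vertical), both on log scales, for the 195 called and the 306 other divergent regions found in both lists; dashed lines mark rank 1416. Called regions lie along the diagonal and 159 of them fall below both lines, while the others fill the upper right.

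Some members near the threshold rested mainly on 1 replicate. The F49C12.9/rpn-7 region, at a proteasome subunit gene, had a pooled signal of 109 and ranked 5348 in replicate 1 and 666 in replicate 2. Another called region ranked 6157 in replicate 1 and 936 in replicate 2. One more, the weakest of the divergent thresholded peaks with a signal of 97.9, ranked 783 in replicate 1 and 4574 in replicate 2.

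The thresholded peaks of next lowest signal had been ranked more alike. F44E5.4/F44E5.5, a pair of Hsp70 chaperone genes, had a signal of 99.2 and ranks of 1920 in replicate 1 and 1399 in replicate 2. These 2 genes resemble each other, and how reads shared between such copies were placed is not given in the sources used here. elb-1/Y41C4A.11 had a signal of 99.6 and ranks of 1853 in replicate 1 and 1674 in replicate 2. Just below the threshold, Y47D3A.14/aakb-2 had a signal of 96.1 and npp-3/top-2, a nuclear pore gene paired with a DNA topoisomerase gene, had 95.6. cec-7/enu-3.5 had a signal of 94.3 and ranked 593 in replicate 1 against 17723 in replicate 2.

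Called members had their summits between the starts more often than the others. This held for 166 of 195 called members (85.1%, 79.3 to 89.8%), against 314 of 453 other members (69.3%, 64.8 to 73.5%). In the replicate 1 list the shares were 87.5% of called and 63.2% of other divergent regions, and in the replicate 2 list 88.6 and 70.4%, in the same order. Where the gap was over 500 bp, the membership rule allowed no other position. All 81 pooled members with gaps of 501 to 600 bp and all 86 of 601 to 1000 bp were thus between the starts. Of these, 23 and 31 were called. Called summits also lay nearer the midpoint of the starts, at a median of 66.5 bp, against 100 bp in the others. In replicate 1 the medians were 62.2 bp in called and 115 bp in other regions, and in replicate 2 they were 63.5 and 101 bp. This order did not hold at every gap. For gaps of 501 to 600 bp the pooled median was 109 bp in called members, against 95 bp in all members, and for 401 to 500 bp it was 87 bp, against 82 bp. The median distance to the nearest start was similar, at 127 bp in called and 120 bp in other members. Of the called summits 87 were nearer the minus-strand start and 108 nearer the plus-strand start, against 220 and 233 of the others.

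The annotation at the summit gave the same picture in terms of gene parts. Among called members 166 summits (85.1%) lay outside coding genes, 21 (10.8%) in a 5′ UTR, 4 (2.05%) in a coding exon and 4 in an intron. Among other members 313 (69.1%) lay outside coding genes, 39 (8.61%) in a 5′ UTR, 75 (16.6%) in a coding exon and 26 (5.74%) in an intron. Coding exons thus held 2.05% of called summits (interval 0.562 to 5.17%), against 16.6% (13.3 to 20.3%) of other divergent summits and 5.99% of called single-start summits.

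**Figure D3:**
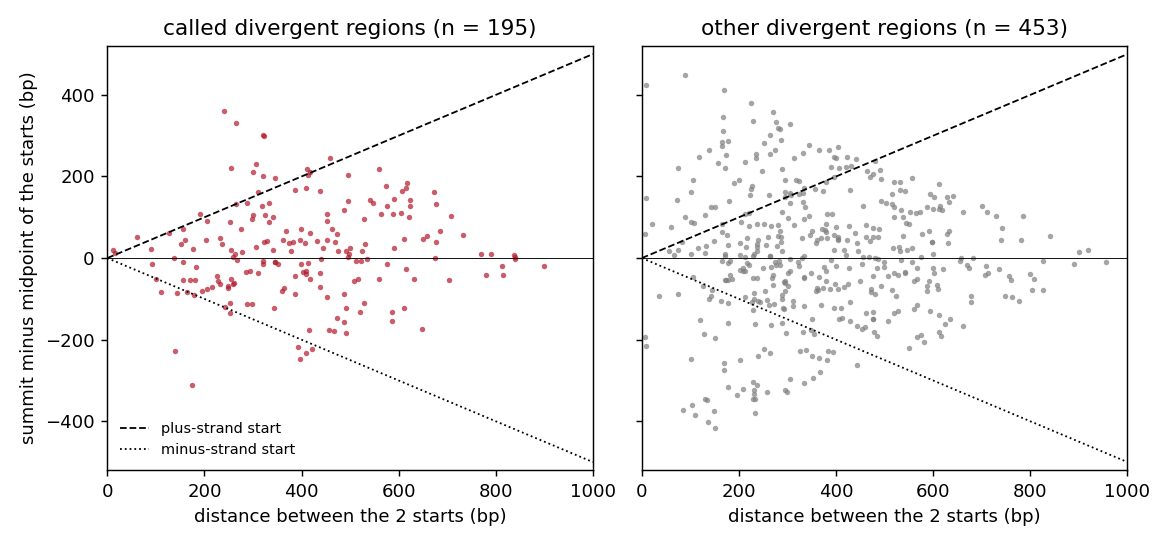
Distance of the summit from the midpoint of the 2 starts (bp, positive toward the plus-strand gene) against the distance between the starts (bp), for 195 called and 453 other divergent regions; each point is a region and the dashed and dotted lines mark the starts. Points outside the wedge have their summit past a start, which was the case for 29 of 195 called and 139 of 453 other regions.

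The distance between the starts differed less. Called members had a median gap of 398 bp (quartiles 265 and 523), against 347 bp (232 and 499) in the others, and the gaps of both ran over nearly the same range. The difference was 51 bp, with an interval of 4.96 to 84.2 bp. A wide gap leaves more room for a summit between the starts, and over 500 bp the membership rule allows no other position. When only summits between the starts were compared the order turned: the median gap was 417.5 bp in 166 called and 427 bp in 314 other regions. Among regions with the summit past a start it was 265 bp in 29 called and 229 bp in 139 other regions of the pooled list, an order that neither replicate list shared.

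In the replicate 1 list the median gap was 397.5 bp in called and 346 bp in other divergent regions, and in the replicate 2 list it was 386 and 334 bp. Among summits between the starts it was 413 bp in called and 470 bp in other regions of replicate 1, and 406.5 and 413 bp in replicate 2. Among summits past a start it was 190 bp in called and 223 bp in other regions of replicate 1, and 178 and 233 bp in replicate 2. In both replicate lists the median gap was thus wider in called regions when all summits were taken, and narrower in them within each summit position.

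Across gap classes the called share varied within overlapping intervals. It was 25% for gaps up to 100 bp (6 of 24), 23.5% for 101 to 200 bp and 24.3% for 201 to 300 bp. It was 30.6% for 301 to 400 bp, 39.8% for 401 to 500 bp, 28.4% for 501 to 600 bp and 36.0% for 601 to 1000 bp. Each class was above the 9.67% of single-start regions.

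**Figure D4:**
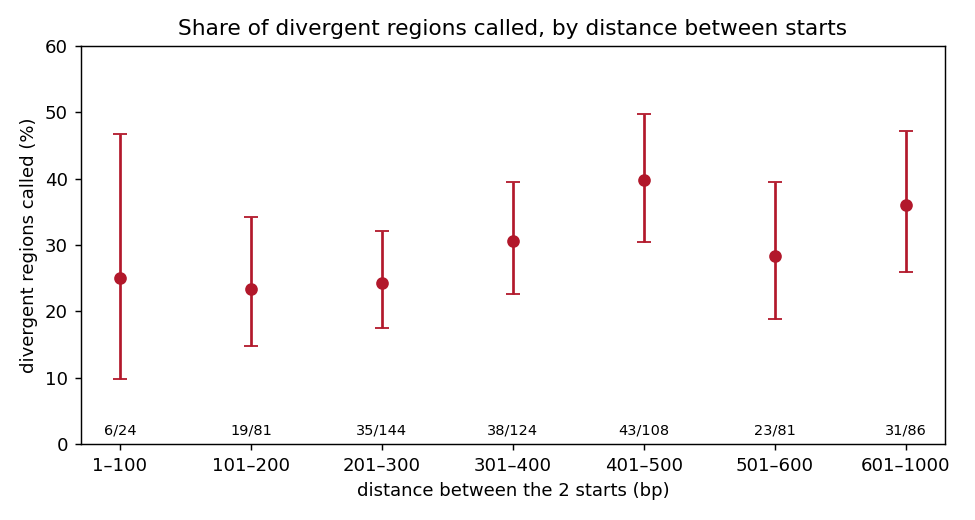
Share of divergent regions called (%) by the distance between the 2 starts (bp); points are shares, bars 95% exact intervals, and the numbers at the bottom give called over all regions. The shares lie between 23.5 and 39.8% and their intervals overlap.

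Called members included pairs whose starts lay almost side by side. The starts of F32D8.14, annotated as a YIPF membrane protein, and F32D8.5, a mitochondrial transmembrane protein homolog, were 12 bp apart (chromosome V, 10894706 to 10894905; WBGene00009336 and WBGene00009330). This region had a signal of 319 and ranked 121 in replicate 1 and 249 in replicate 2, and the whole stretch between its starts is the shortest of the printed sequences. F25H9.6/F25H9.7, where F25H9.7 is annotated as a succinate dehydrogenase assembly factor, had a gap of 15 bp and a signal of 569. F01F1.11/F01F1.3 had a gap of 61 bp and a signal of 285. In all 3 the summit lay past the plus-strand start, in an annotated 5′ UTR.

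At the other end, sqv-3, a glycosyltransferase gene, and vha-1, a subunit of the vacuolar proton pump, were 900 bp apart with a signal of 104. col-38, a cuticle collagen gene, and rpl-5, a ribosomal protein gene, were 839 bp apart with a signal of 133. T23H2.3/npp-12 had the same gap and a signal of 64.8, and was called only through a stronger neighbouring peak. In these 3 the summit lay between the starts.

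The 500 bp limit cut through pairs of both kinds. Just inside it, with the farther start at 499 or 498 bp, were far-1/far-2 with a signal of 35.7, rict-1/gfm-1 with 273 and akir-1/E01A2.1 with 139. All 3 were called, far-1/far-2 only through a neighbouring peak. marb-1/F35G2.3, chosen after its values were seen, also had its farther start at 498 bp, with a signal of 62.9, and was not called. Just outside it, at 501 to 505 bp, were C17B7.10/C17B7.3, ttr-24/ttr-25 and fem-1/drp-1, with signals of 35.1, 26.4 and 26.0, and none was called. Members with further genes were few: 14 of the 648 had more than 2 coding genes within 500 bp, of which 4 were called.

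Seen from the genes, head-to-head arrangement went with occupancy in the same way. The annotation holds 1745 pairs of coding genes that start within 1000 bp of each other in divergent orientation, and 584 of them had a member region (33.5%). Of the 1745, 176 had a called member (10.1%, 8.71 to 11.6%). A called region of any class lay within 500 bp of the start of 397 of the 3490 genes of such pairs (11.4%, 10.3 to 12.5%). It did so for 394 of 15282 genes with no other coding start within 1000 bp (2.58%, 2.33 to 2.84%) and for 4.23% of all 19973 coding genes. Genes of divergent pairs also had any pooled region, called or not, more often: 45.4%, against 28.8% of the genes without a close neighbour. Among genes with a region, 25.1% of the paired and 8.95% of the others had a called one. In these gene counts a region near both starts of a pair counts for both genes. The intervals take genes as independent, which genes that share a region are not.

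The 195 called members lay at the starts of 352 genes, and 1170 genes lay at any member. These are 30.1% of the genes at members and 1.76% of all coding genes, and the shares of each gene group are read against these values. No test was made of any group. The groups were taken by symbol and were chosen with earlier results of these data known, and a region is counted for both genes of its pair.

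Among genes of protein synthesis, cytosolic ribosomal protein genes stood at divergent regions most often: 36 of 81 did, and 14 of these 36 were at a called one (38.9%). The highest signals were 389 at tmem-107/rps-26, 378 at rps-23/dpm-3, 327 at rpl-15/K11H12.8 and 189 at rpl-20/Y17G9B.5. Of 11 translation factor genes at divergent regions 4 were at a called one, among them eef-1A.1, an elongation factor, paired with rfc-4, a replication factor subunit (137), and eif-4A3, an RNA helicase, paired with vps-20 (280). Of 16 mitochondrial ribosomal protein genes at divergent regions 1 was at a called one, mrpl-18, a share of 6.25%. let-630, a mitochondrial ribosomal gene at a called region, is not in this group, which was taken by symbol.

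The group taken for splicing was the genes named snr, sf3, prp, mog, rsp or uaf. It is not complete, and leaves out snrp-40.1 at a called region and prpf-4 at an uncalled one. Genes of the group were at a called region in 5 of 10 cases. These included snr-1 (429) and snr-2 (167), which encode Sm proteins of the spliceosome. They also included the pair rsp-2/rsp-1 (107), in which both genes encode splicing factors. Of 12 genes named lin, set, jmjd, hda or mys at divergent regions, groups that hold many chromatin genes, 9 were at a called one. They included hda-6, a histone deacetylase, with a signal of 315, beside lin-35, jmjd-1.2 and hda-11 above. The group taken for the cell cycle was the genes named cdk, cyb, cye, mcm, knl, bub, spd, zyg or orc. It was taken whatever the function of each gene, and cell division genes with other symbols were not counted. Of the 8 genes of this group at divergent regions 4 were at a called one, which were spd-5, bub-1, cdk-9 and zyg-1. Among them bub-1, a spindle checkpoint kinase, shared a region of signal 272 with lin-61, a chromatin protein. zyg-1, a centriole duplication kinase, shared one of signal 175 with F59E12.17, annotated as an anaphase-promoting complex subunit.

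Genes of membrane traffic were at a called region in 6 of 9 cases, among them snx-13, which shares its region with snr-1, and vps-33.1 (191). Of the respiratory chain and ATP synthase 3 of 9 genes were, with atp-5 at a signal of 376 and mev-1, a succinate dehydrogenase subunit, at 101. Chaperonin and prefoldin genes were in 2 of 6 cases, cct-7 (234) and cct-8 (165), which encode subunits of the chaperonin ring. Proteasome genes were in 2 of 12, nuclear pore genes in 2 of 9, tRNA synthetases in 1 of 6 and genes of RNA polymerase, Mediator and TAF proteins in 1 of 7, which was taf-7.2 (341). The respiratory chain group, also taken by symbol, is not complete. It leaves out F29B9.11, annotated as a cytochrome c oxidase subunit and at a called region, and genes named ndua, at called and at uncalled regions.

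Histone genes often lie head to head, and 62 of 72 belonged to a divergent pair. Of the 72, 18 were at a member region and 6 at a called one, with his-61/his-62 at 150 and his-67/his-68 at 128. Histone genes have near-identical copies, so these values are uncertain.

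Counts were also taken for large gene families, beside the 1170 of 19973 coding genes at a member region. Of 1162 chemoreceptor genes with symbols that begin with sr, 6 were at a member and 1 at a called one. This rule leaves out W02H5.16, annotated as a serpentine receptor and at a called region, and str-12 at an uncalled one. Of 322 F-box genes 13 were at a member and 2 at a called one, and of 269 nuclear hormone receptor genes 3 and 1. Of 240 C-type lectin genes 3 were at a member and none (0) at a called one, and of 185 cyp, ugt and gst genes none (0) was at a member. All 3 collagen genes named col at a member were at a called one, col-71 (341), col-2 (167) and col-38. Collagen genes with other symbols were not counted. The partners of these 3 were Y49F6B.2, annotated with a domain of ribosomal RNA processing proteins, ndc-80, a kinetochore protein, and rpl-5.

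Small RNA genes were near few divergent members. A tRNA, snoRNA, snRNA or miRNA gene start lay within 500 bp of 10 of 195 called summits, against 4 of 453 other divergent summits and 63 of 584 called single-start summits. tRNA genes accounted for 43 of the 63 at single-start regions and for 1 of the 10 at divergent ones, which was sec-15/C28G1.2 with a signal of 305. The 5 at snoRNA genes included 4 ribosomal protein pairs, tmem-107/rps-26, ska-3/rps-12, rpl-7A/set-21 and rps-10/rpl-24.1. Without regions near such genes the called share was 29.2% of 634 divergent and 8.85% of 5889 single-start regions.

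The bases around called summits were richer in G and C. In 100 bp centred on the summit the median G + C was 47% in called members (quartiles 42.5 and 52), against 43% in other members (37 and 48). Called single-start regions had 49%, other single-start regions 44% and all pooled regions 44%. The called share rose with G + C in both classes: divergent regions were called in 16.5, 27.5, 34.7 and 44.4% of cases at under 40, 40 to 44, 45 to 49 and 50% or more, against 4.88, 6.64, 11.3 and 16.2% of single-start regions. At each level the divergent share was above the single-start share, and the intervals did not meet. The part of base composition in the call was not tested.

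**Figure D5:**
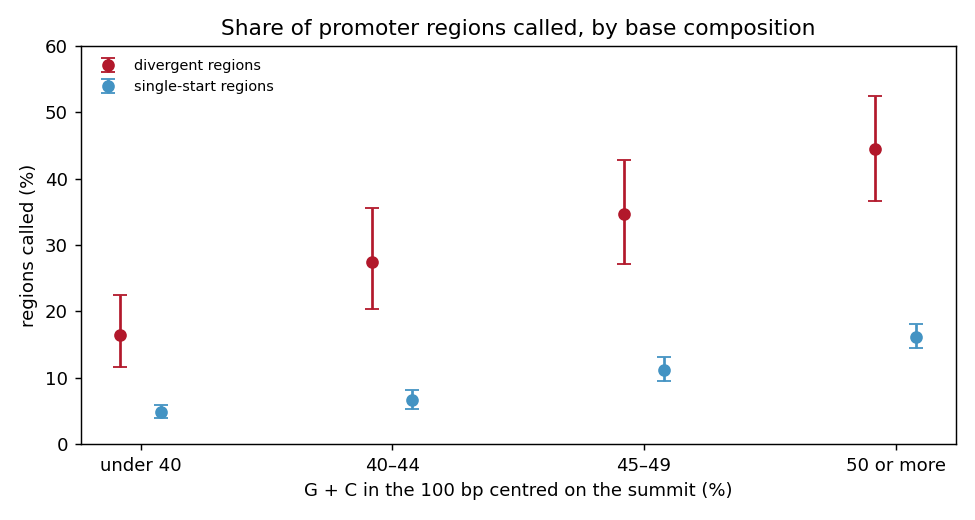
Share of regions called (%) by the G + C content of the 100 bp centred on the summit, for divergent and single-start regions; points are shares and bars 95% exact intervals. Divergent regions were called in 16.5 to 44.4% of cases and single-start regions in 4.88 to 16.2%.

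The same 100 bp windows were searched on both strands for 12 short words. The GC box GGGCGG was present in 27 of 195 called members (13.8%, 9.33 to 19.5%), against 22 of 453 other members (4.86%, 3.07 to 7.26%). It was present in 7.71% of called single-start regions and in 4.36% of all pooled regions. This word is made of G and C, and among windows with 50% G + C or more it was present in 17 of 72 called and 11 of 90 other members, which is 23.6 and 12.2%. Among windows with 45 to 49% it was present in 8 of 52 called and 6 of 98 other members. In both bins the intervals of called and other members overlapped. Among windows with 40 to 44% the order was the other way, with 1 of 39 called and 4 of 103 other members. Called members with the word had a median signal of 150 and those without it 178. They included rnf-121/C16C10.4, with a signal of 349, and lin-61/bub-1.

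The other 11 words differed by fewer percentage points between called and other members. TTTGAA, the cell cycle genes homology region, was present in 25.1% of called and 21.0% of other members, with overlapping intervals. It was present in 23.6% of called single-start regions and in 16.8% of all pooled regions. TATAAA was present in 5.13% of called and 9.49% of other members, and in 5.93% of all regions. The E2F words TTCCCGCC and TTTCCCGC, which share 7 bases, the cAMP response word TGACGTCA and the tRNA promoter word GGTTCGA were in none (0) of the 195 called windows, which allows up to 1.87% for each. Of all pooled windows they were in 0.633, 0.653, 0.65 and 1.22%, in that order. The E-box CACGTG was in 1.03% of called windows, against 2.57% of all, and the core ATCGAT of the replication-related element in 3.59%, against 3.28%. The repeat GAGAGAGA was in 2.56%, against 2.26%, the heat shock word TTCTAGAA in 1.03%, against 0.387%, and the tract TTTTTTTT in 6.15%, against 6.34%. A match is a run of letters and was not tested as a binding site.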

How the data were processed

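ChIP-seq regions of C08G9.2-GFP were available for 2 biological replicates. The authors deposited, per the text records, lists of peaks together with background for each replicate and for both pooled, made from ce11 alignments and a control, and a thresholded list, for which the irreproducible discovery rate (IDR) of regions across those lists was used. Which aligner, peak caller and IDR threshold were used is not given in the sources used here. The deposited signal of a region is the authors' own, on a scale that is not stated, so regions were ranked, filtered and described by it only inside 1 list. Depth is unknown.

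Gene starts are the 5′ ends of protein-coding gene records in Ensembl release 115 (WBcel235, the same assembly as ce11). Regions were classed by the coding starts within 500 bp of the summit. Coordinates are 1-based. Class assignment, gaps and overlaps were tested on simulated regions. Shares carry 95% exact Clopper-Pearson intervals, differences a combination of the 2 intervals, and the median gap an order-statistic interval. No test over regions or genes was made, since regions of 1 library are not replicates. RefSeq gene products were looked up by symbol.

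The members, gene groups, short words and alternatives were chosen with earlier results of these data known. Named members are the 20 of highest called signal, those nearest the signal threshold, the gap extremes and the 500 bp limit, those whose replicate ranks differ most, and up to 4 per gene group. Some named by the rule are not reported here. Members near small RNA genes or with a GC box were chosen after their values were seen. The chemoreceptor symbol rule was narrowed after it had taken up genes of other families. Printed bases were kept to those between the starts. Calculations used Python 3.11.15, numpy 2.4.6, pandas 2.3.3, scipy 1.17.1 and matplotlib 3.10.9.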

Additional observations from a re-analysis of the deposited data

How the results depend on the processing

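The higher called share of divergent over single-start regions kept its direction under 11 listed alternatives and 1 chosen after seeing the data. With the summit within 1000 bp of both starts the divergent share was 20.7% and the difference from single-start regions 13.3 percentage points. With only the upper 50% of thresholded peaks these values were 20.2% and 15.0 points. With only summits between the starts they were 34.6% and 24.9 points, but this setting left the single-start regions unfiltered. With only upstream summits in both classes, the added alternative, the divergent share was also 34.6% and the difference 19.1 points. When either replicate was left out, the share ran between 26.0 and 28.8% and the difference between 17.9 and 20.5 points. Summits lay between the starts more often in called members by 15.8 points, by 8.07 points within 250 bp, by 36.5 points within 1000 bp, and by 18.2 to 24.3 points when either replicate was left out. The difference in median gap was the result that reversed: it was 51 bp in all members, −9.5 bp with only summits between the starts and −9.5 bp with only upstream summits, the same regions, and 51.5 to 52 bp when either replicate was left out. In the other alternatives it stayed between 15.5 and 67 bp. No paired analysis was possible because there is 1 group.

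The limits are few samples, no untagged embryos, an unknown depth and lists with no read counts. The thresholded peaks are the highest-signal regions of the pooled reads, so being a peak and having a high signal are not independent. The pooled list shares its reads with both replicate lists. Several members lie at 1 pair in 63 of the 585 pairs.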

Other observations

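Divergent members were spread unevenly over the chromosomes. Chromosome X held 26 of the 648, although it held 4973 of the 30000 pooled regions, and chromosome III held 157 with 5084 pooled regions. The called share of members was 40.0% on chromosome IV (38 of 95, interval 30.1 to 50.6%), 31.6% on I, 29.3% on III, 28.1% on II, 24.0% on V (25 of 104, 16.2 to 33.4%) and 23.1% on X (6 of 26, 8.97 to 43.6%). Every one of these shares was above the called share of all pooled regions on the same chromosome, which ran between 5.01 and 6.92%, and the intervals of the 6 chromosomes overlapped.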
